A study of Rattus norvegicus with 8 samples.

Results

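Transcripts of genes that repair damaged DNA were measured along a culture path that starts with embryonic stem cells of the rat and ends with cells like primordial germ cells, the founders of eggs and sperm. The set was 40 named genes of base excision repair, the Fanconi anemia pathway, homologous recombination and the kinases that signal DNA damage. Of the 40, 39 were found by symbol among the 22228 named genes of the table, and Fancm is not analysed here. All 39 passed the filter on low values (at least 1 TPM, a transcript level scaled by gene length and library total, in at least 2 libraries), as did 13571 genes in all. By role, 6 encode the Fanconi core complex, 2 the FANCD2-FANCI pair, 11 act in homologous recombination, 9 are DNA glycosylases, 7 act downstream in base excision repair and 4 are checkpoint kinases.

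There were 4 groups of 2 libraries, all from cells of the strain Crlj:WI. ESC are rat embryonic stem cells grown on mouse embryonic fibroblasts with the MEK inhibitor PD0325901 (1 µM), the GSK3 inhibitor CHIR99021 (3 µM) and rat LIF (1000 U/ml). EpiLC are epiblast-like cells, made by aggregating ESC for 60 h in medium with 12 ng/ml bFGF and 20 ng/ml activin A. PGCLC_d3 are primordial germ cell-like cells sorted on day 3 after EpiLC aggregates were moved to BMP4 (500 ng/ml), LIF (1000 U/ml), SCF (100 ng/ml) and EGF (50 ng/ml). PGCLC_d3ag3 are cells sorted 3 days after 5000 such cells had been mixed with 50000 somatic cells of female E15.5 gonads (embryonic age in days), themselves depleted of c-KIT-positive cells. Both PGCLC groups were sorted as positive for Nanos3-T2A-tdTomato, a reporter read from the germ cell gene Nanos3, while the genotype of all 8 libraries is labelled wild type. ESC and EpiLC were not described as sorted, so the PGCLC groups differ from them by the sort as well. Whether the 2 libraries of a group are from separate cultures is not labelled. The p-values therefore measure only how far these libraries spread, which may be technical.

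In base excision repair, a glycosylase cuts out a damaged base, the nuclease APEX1 opens the strand, and a polymerase and a ligase on a scaffold close the gap. In the Fanconi pathway, a core complex attaches ubiquitin to FANCD2 and FANCI at a crosslink between the strands, and homologous recombination, led by BRCA1, PALB2 and BRCA2, rebuilds the break that follows. Mouse primordial germ cells are known to need Fanconi genes to keep their numbers, and base excision repair has been tied to the erasure of DNA methylation in them.

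Most defining markers were highest in the groups they label, but Dnmt3l and Dppa3 were not, and Fgf5 was hardly detected in any group. Nanog was highest in ESC, at 933 and 912 TPM, Otx2 in EpiLC, at 74.6 and 73.9 TPM, and Prdm1 in PGCLC_d3, at 67.6 and 65.4 TPM, followed by PGCLC_d3ag3, at 22.2 and 23.4 TPM. The EpiLC marker Fgf5 was at or under 0.0747 TPM in every library. Dnmt3l, listed with the EpiLC markers, was at 331 and 255 TPM in EpiLC, below ESC at 1121 and 1039 TPM. Dppa3, listed with the PGCLC markers, was at 375 to 509.9 TPM in the PGCLC libraries, below ESC at 1312 and 1306 TPM. Of somatic lists, 9 fibroblast genes summed to 45.3 and 84.6 TPM in EpiLC and 29.7 and 24.4 TPM in ESC. They summed to 4.43 and 7.85 TPM in PGCLC_d3, and to 12.3 and 15.6 TPM in PGCLC_d3ag3. The 11 gonadal somatic genes summed to 13.1 and 14.4 TPM in PGCLC_d3ag3, against 5.22 and 4.76 TPM in PGCLC_d3, with 18.6 and 17.7 TPM in EpiLC and 6.3 and 6.66 TPM in ESC. The 7 endothelial and blood genes summed to 180.0 and 174 TPM in PGCLC_d3ag3 and 23.0 and 20.8 TPM in PGCLC_d3, most of it Pecam1, which ESC also held at 103 and 105 TPM. The blood gene Hba-a1 was at 44.1 and 35.5 TPM in PGCLC_d3ag3, against 2.12 and 0.754 TPM in PGCLC_d3, with Ptprc, a marker of white blood cells, at or under 0.0541 TPM in all 8 libraries. Cdh5 of the same list was lower in PGCLC_d3ag3, at 0.364 and 0.213 TPM against 1.67 and 1.71 TPM in PGCLC_d3. So was Kdr, at 0.188 and 0.308 TPM against 0.833 and 0.981 TPM. The part of these other cells in the results below was not tested. Replicates correlated across the tested genes at a Pearson r of 0.995 to 0.998. Relative sequencing depth was estimated, without read counts, from the commonest ratio of low TPM values to those of ESC replicate 1, set to 1. The estimate was 2.17 and 2.38 in PGCLC_d3ag3 and 1 to 1.5 in the other groups. In PGCLC_d3ag3 it rested on 69 of 1007 and 134 of 1420 low genes. Both PGCLC_d3ag3 libraries had a higher estimate than all others. The part of depth in the differences of PGCLC_d3ag3 therefore cannot be told apart from that of the group, and was not tested.

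Repair transcripts differed between the groups about as often as other transcripts did. Of the 39 genes, 16 had their highest mean in PGCLC_d3, 10 in EpiLC, 10 in PGCLC_d3ag3 and 3 in ESC, where 32.9%, 20.9%, 24.4% and 21.7% of all tested genes had theirs. ESC held the lowest mean of 18 of the 39, against 32.4% of all genes. No test was made of these shares, and PGCLC_d3 also held the peak of more genes overall than any other group. After each library was rescaled by the median of its gene ratios, 10 members had their highest mean in PGCLC_d3, 13 in EpiLC, 11 in PGCLC_d3ag3 and 5 in ESC, beside 21.7%, 24.3%, 27.2% and 26.8% of all genes. The highest group changed for 7 members, from PGCLC_d3 for Fance (to ESC), Fancl, Apex1 and Atm (to EpiLC), Brip1 and Rad51b (to PGCLC_d3ag3), and from PGCLC_d3ag3 for Ogg1 (to ESC). Per gene, differences in log2(TPM+1) between groups were tested with limma, and a gene was called where its p, adjusted over all 13571 genes after Benjamini and Hochberg, was under 0.05. Errors of these differences are standard errors (SE), those of mean TPM are standard deviations (SD), and n = 2 libraries a group throughout. In bulk RNA, a lower level can come from fewer cells of a type or from less RNA per cell, and the 2 cannot be told apart.

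In EpiLC versus ESC, 19 of the 39 genes were higher and 7 lower, where 35.4% of all tested genes were higher and 31.8% lower (67.3% called). The median difference of the 39 was 0.27, against 0.04 for all genes. For PGCLC_d3 versus EpiLC, 24 were higher and 6 lower, beside 47.3% and 27.6% of all genes (74.9% called), with a median of 0.37 against 0.21. For PGCLC_d3ag3 versus PGCLC_d3, 7 were higher and 20 lower, beside 25.7% and 44.8% of all genes (70.4% called), with a median of -0.25 against -0.18. Across the first 2 steps together, in PGCLC_d3 versus ESC, 26 were higher and 6 lower, beside 49.6% and 27.4% of all genes (77.0% called), with a median of 0.62 against 0.25. The last comparison shares its libraries with the first 2, so its counts are not separate evidence. The members' shares of calls, from 66.7% to 82.1%, were near those of all genes.

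The median gene itself moved by 0.21, -0.18 and 0.25 in the 3 comparisons with a PGCLC group. In these comparisons many differences of members are therefore also given relative to the median gene, while those of genes outside the set are on the deposited scale alone. Rescaling each library by the median of its gene ratios brought that median to within 0.02 of 0 and gave 17 members higher and 11 lower in PGCLC_d3 versus EpiLC, 12 and 14 in PGCLC_d3ag3 versus PGCLC_d3, and 21 and 10 in PGCLC_d3 versus ESC. Under the same rescaling 49%, 49.7% and 50.3% of all calls were higher ones, where the deposited scale had 63.2%, 36.4% and 64.4%. For EpiLC versus ESC both scales gave 19 and 7.

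**Figure D1:**
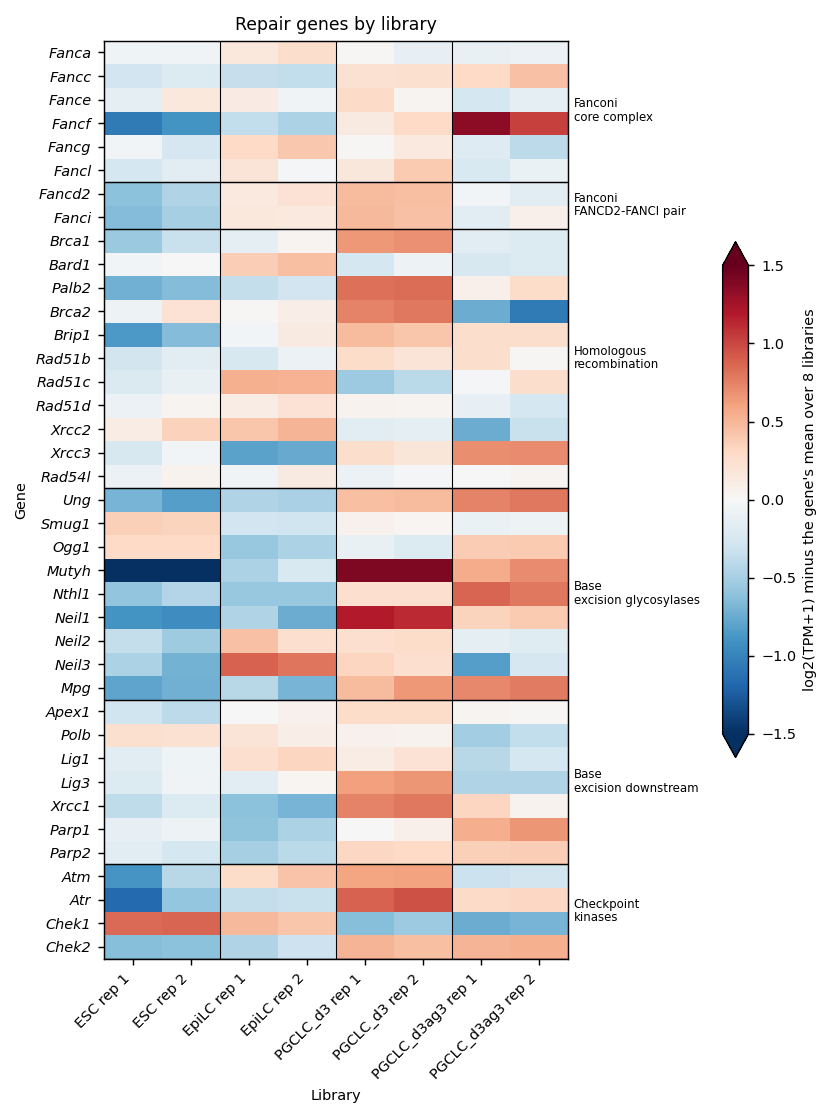
Level of each of the 39 repair genes (rows, by role) in each of the 8 libraries (columns), as log2(TPM+1) minus the gene's own mean over all libraries, red for above and blue for below. Mutyh spans the widest range of colours, Chek1 is red in ESC where the other kinases are blue, and Rad54l is pale throughout.

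**Figure D2:**
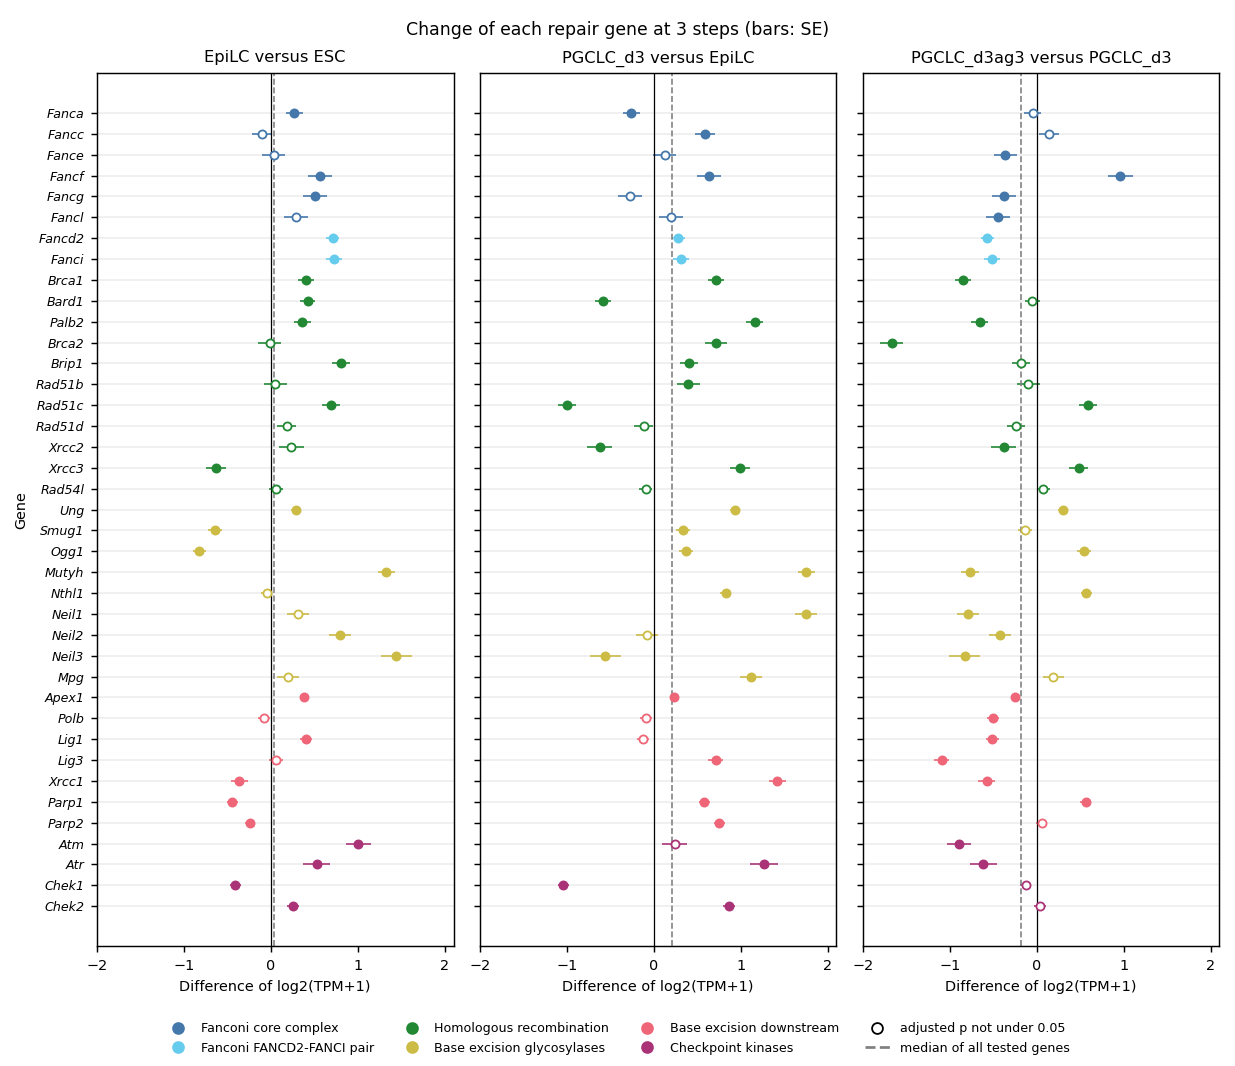
Difference of log2(TPM+1) of each gene at 3 successive steps, with bars of 1 SE and the later group minus the earlier one on the horizontal axis. Filled points have an adjusted p under 0.05 and the dashed line is the median of all 13571 tested genes. Mutyh, Neil1 and Xrcc1 lie farthest right in PGCLC_d3 versus EpiLC, and Brca2 and Lig3 farthest left in PGCLC_d3ag3 versus PGCLC_d3.

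Before gonadal aggregation, 13 of the 39 genes were higher in PGCLC_d3 than in ESC by at least 1 on the log2 scale, and 1, Chek1, was lower by that much, where 34.5% of all tested genes were called with a difference of at least 1 in either direction. The 13 came from every role, with Mutyh (3.08), Neil1 (2.06), Atr (1.79) and Palb2 (1.52) at the top, followed by Mpg, Ung, Brip1, Fancf, Atm, Brca1, Chek2, Xrcc1 and Fanci. After rescaling by median ratios 5 of the 13 stayed past 1, namely Mutyh (2.79), Neil1 (1.80), Atr (1.5), Palb2 (1.23) and Mpg (1.04). Chek1 was then at -1.74. The share of all genes with a called difference of at least 1 was not counted on the rescaled values.

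Among the 6 core complex genes, Fancf stood out by rising at every step. FANCF is the adaptor that holds the subunits of the core complex together. Fancf was at 3.18 and 3.67 TPM in ESC, 5.78 and 5.3 TPM in EpiLC, 8.58 and 9.79 TPM in PGCLC_d3, and 21.1 and 16.7 TPM in PGCLC_d3ag3. All 4 groups kept apart from each other, with the levels in path order and the widest gap between libraries in PGCLC_d3ag3. The differences were 0.57 ± 0.14 in EpiLC versus ESC (adjusted p = 0.00542), 0.64 ± 0.14 in PGCLC_d3 versus EpiLC (adjusted p = 0.00231) and 0.96 ± 0.14 in PGCLC_d3ag3 versus PGCLC_d3 (adjusted p = 1.88e-04). Relative to the median gene the last 2 were 0.43 and 1.14. Under quantile normalization Fancf no longer passed in PGCLC_d3 versus EpiLC, while the other 2 calls held.

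The other 5 core genes moved less, with at most a 2.16-fold range of group means (Fancg). Fancc was the other core gene called higher in PGCLC_d3 than in EpiLC, at 8.87 ± 0.0241 TPM against 5.56 ± 0.074 TPM (difference 0.59 ± 0.11, 0.38 relative to the median gene, adjusted p = 9.27e-04), and this call too was lost under quantile normalization. Fancg, a low transcript at 2.07 ± 0.16 TPM in EpiLC, rose there over 1.17 ± 0.228 TPM in ESC (adjusted p = 0.00839). Without ESC replicate 2 or EpiLC replicate 2, that adjusted p was 0.0649 and 0.0503, the difference then 0.40 and 0.45, and it did not pass under quantile normalization either (adjusted p = 0.0692). Fanca was also higher in EpiLC than in ESC and lower in PGCLC_d3 than in EpiLC, with differences of 0.27 and -0.26 (adjusted p = 0.0336 and 0.0334). The 2 differences kept their sign without each library in turn, at 0.21 to 0.32 and -0.33 to -0.19, but the calls did not all hold. Without either ESC library, EpiLC replicate 2 or either PGCLC_d3 library the first had an adjusted p of 0.0541 to 0.169, and without EpiLC replicate 2 or either PGCLC_d3 library the second had 0.052 to 0.226.

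In PGCLC_d3ag3 versus PGCLC_d3, Fance, Fancg and Fancl were called lower, with differences of -0.36, -0.38 and -0.44. FANCL carries the ubiquitin ligase activity of the complex and FANCE links it to FANCD2. Relative to the median gene these differences were -0.18, -0.20 and -0.27, and none of the 3 passed after rescaling by median ratios (adjusted p = 0.265, 0.126 and 0.0935). They also did not pass without 1 of several libraries, with an adjusted p of 0.0504 to 0.254 for Fance (EpiLC replicate 1, PGCLC_d3 replicate 1 or either PGCLC_d3ag3 library), 0.0576 to 0.155 for Fancg (either PGCLC_d3 library or PGCLC_d3ag3 replicate 2) and 0.139 and 0.0714 for Fancl (PGCLC_d3 replicate 2 or PGCLC_d3ag3 replicate 1). Summed over the 6 core genes, levels were 40.8 and 45 TPM in ESC, 50.7 and 49 TPM in EpiLC, 56.5 and 54.6 TPM in PGCLC_d3, and 60.5 and 58.8 TPM in PGCLC_d3ag3. Without Fancf, the other 5 summed to 37.6 and 41.3 TPM in ESC, 44.9 and 43.7 TPM in EpiLC, 47.9 and 44.9 TPM in PGCLC_d3, and 39.4 and 42.1 TPM in PGCLC_d3ag3, a sum chosen after the values were seen. PGCLC_d3ag3 lay below both PGCLC_d3 libraries on the deposited scale only. After rescaling by median ratios the 2 groups overlapped, at 42.05 and 38.97 TPM in PGCLC_d3 and 40.12 and 41.97 TPM in PGCLC_d3ag3. The sum of the 6 after rescaling by median ratios was 44.9 and 47.5 TPM in ESC, 53.5 and 51.7 TPM in EpiLC, 49.6 and 47.5 TPM in PGCLC_d3, and 61.6 and 58.7 TPM in PGCLC_d3ag3, with both PGCLC_d3 libraries below both EpiLC libraries.

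Fancd2 and Fanci, whose proteins form the clamp that the core complex marks with ubiquitin, kept a transcript ratio between 1.38 and 1.81 in all 8 libraries. Fanci was at 30.6 and 34.1 TPM in ESC, 54.1 and 53.9 TPM in EpiLC, 68.5 and 66 TPM in PGCLC_d3, and 42.9 and 51.1 TPM in PGCLC_d3ag3. PGCLC_d3 was the highest group, ESC the lowest, and the EpiLC libraries lay above both PGCLC_d3ag3 libraries. Fancd2 followed the same order of groups at higher levels, with means of 55 ± 4.5 TPM, 90.6 ± 3.46 TPM, 110.2 ± 1.25 TPM and 74 ± 4.81 TPM from ESC to PGCLC_d3ag3. The TPM ratio of Fancd2 to Fanci was 1.7 and 1.71 in ESC, 1.63 and 1.73 in EpiLC, 1.62 and 1.66 in PGCLC_d3, and 1.8 and 1.38 in PGCLC_d3ag3. Fanci was higher in EpiLC than in ESC by 0.72 ± 0.09 (adjusted p = 6.20e-05) and Fancd2 by 0.71 ± 0.07 (adjusted p = 1.68e-05). Both fell in PGCLC_d3ag3 versus PGCLC_d3, Fanci by 0.51 on the log2 scale (adjusted p = 6.40e-04) and Fancd2 by 0.57 (adjusted p = 8.40e-05), which relative to the median gene was -0.34 and -0.39. The deposited scale gave calls in PGCLC_d3 versus EpiLC of 0.31 and 0.28 (adjusted p = 0.0106 and 0.00638). After rescaling by median ratios these were 0.04 and 0.01 and no longer passed, and on the deposited scale they were lost without PGCLC_d3 replicate 1 (Fanci, adjusted p = 0.0643) or EpiLC replicate 1 (Fancd2, adjusted p = 0.0508).

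**Figure D3:**
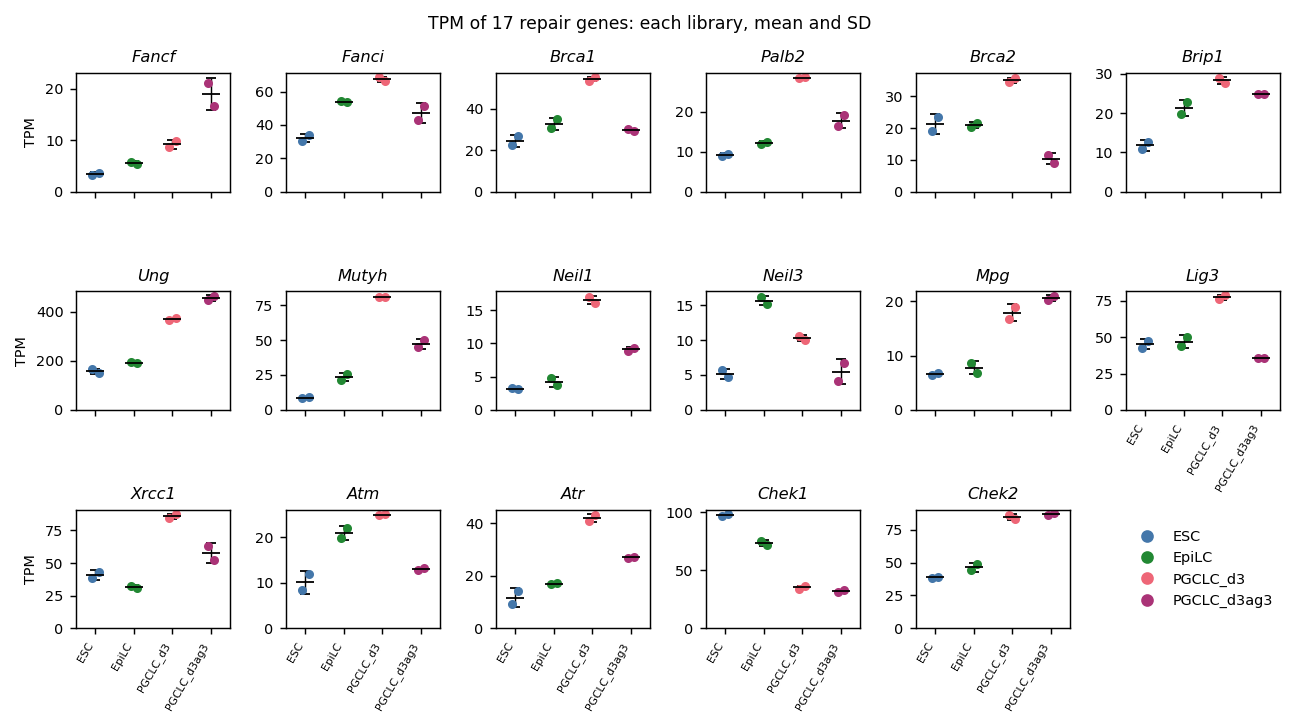
TPM of the 17 genes given library by library in the text, 1 panel a gene, with points for libraries and bars for the mean and SD of the 2 libraries of a group. The vertical axes start at 0 and differ between panels. Most panels peak in PGCLC_d3, whereas Fancf, Ung, Mpg and Chek2 are highest in PGCLC_d3ag3, Neil3 in EpiLC and Chek1 in ESC.

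Of the 11 recombination genes, Brca1, Palb2 and Brca2 peaked in PGCLC_d3, whereas Bard1 peaked in EpiLC. BRCA1 with its partner BARD1 starts the resection and signalling of a break, and PALB2 bridges BRCA1 to BRCA2, which acts at the broken ends. The promoter window of Brca2 is shown because this gene had the largest fall of the set in PGCLC_d3ag3. It holds the 250 bases before the RefSeq start of the gene in build GRCr8 (chr12:4895197-4895446, forward strand), and none of 4 searched motifs (E2F, NRF1, CCAAT box, GC box) occurs in it.
Brca2: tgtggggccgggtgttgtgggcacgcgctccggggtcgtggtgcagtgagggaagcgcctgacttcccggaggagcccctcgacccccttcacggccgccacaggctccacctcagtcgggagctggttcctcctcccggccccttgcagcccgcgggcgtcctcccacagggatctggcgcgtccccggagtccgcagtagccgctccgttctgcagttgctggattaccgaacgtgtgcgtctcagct

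Brca2 was at 19.1 and 23.6 TPM in ESC, 20.4 and 21.6 TPM in EpiLC, 34.5 and 35.7 TPM in PGCLC_d3, and 11.7 and 9.18 TPM in PGCLC_d3ag3. ESC and EpiLC libraries overlapped, both PGCLC_d3 libraries lay above them and both PGCLC_d3ag3 libraries below. Brca2 fell in PGCLC_d3ag3 versus PGCLC_d3 by 1.67 on the log2 scale (SE 0.13, adjusted p = 2.67e-06) and stood at -1.49 relative to the median gene. It rose in PGCLC_d3 versus EpiLC by 0.71 ± 0.13 (adjusted p = 5.96e-04), 0.50 relative to the median gene, and EpiLC versus ESC gave -0.02 ± 0.13 (adjusted p = 0.928).

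Brca1 was at 22.6 and 26.7 TPM in ESC, 30.9 and 35 TPM in EpiLC, 53.7 and 55.3 TPM in PGCLC_d3, and 30.2 and 29.4 TPM in PGCLC_d3ag3. Both PGCLC_d3 libraries were above all others, and the PGCLC_d3ag3 libraries lay below both EpiLC libraries and above both ESC libraries. The difference was 0.40 ± 0.10 in EpiLC versus ESC (adjusted p = 0.004), 0.71 ± 0.10 in PGCLC_d3 versus EpiLC (adjusted p = 7.52e-05) and -0.85 ± 0.10 in PGCLC_d3ag3 versus PGCLC_d3 (adjusted p = 3.09e-05), the last 2 being 0.50 and -0.67 relative to the median gene. Bard1 had a different course. It was higher in EpiLC than in ESC like Brca1, by 0.42 ± 0.09 (adjusted p = 0.00207), but lower in PGCLC_d3 than in EpiLC, at 20.3 ± 1.92 TPM against 30.8 ± 1.17 TPM (difference -0.58 ± 0.09, -0.79 relative to the median gene, adjusted p = 2.01e-04). Its value of -0.05 in PGCLC_d3ag3 versus PGCLC_d3 did not pass and became 0.26, past the threshold, under quantile normalization.

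Palb2 was at 8.99 and 9.5 TPM in ESC, 11.9 and 12.5 TPM in EpiLC, 28.3 and 28.5 TPM in PGCLC_d3, and 16.4 and 19 TPM in PGCLC_d3ag3. Each group was apart from every other, PGCLC_d3 being highest. It rose by 1.16 ± 0.10 in PGCLC_d3 versus EpiLC (adjusted p = 3.55e-06), 0.95 relative to the median gene, and fell by 0.66 in PGCLC_d3ag3 versus PGCLC_d3 (adjusted p = 2.57e-04), -0.48 relative to it. Its smaller rise of 0.36 in EpiLC versus ESC (adjusted p = 0.00971) did not pass without EpiLC replicate 2, where the difference was 0.33 (adjusted p = 0.0577).

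Brip1 encodes a helicase that binds BRCA1. It was at 10.9 and 12.7 TPM in ESC, 19.9 and 22.7 TPM in EpiLC, 29 and 27.8 TPM in PGCLC_d3, and 24.9 and 25 TPM in PGCLC_d3ag3, lowest in ESC by a wide margin, with PGCLC_d3 above PGCLC_d3ag3 and PGCLC_d3ag3 above EpiLC. Its largest step was EpiLC versus ESC, at 0.80 ± 0.10 (adjusted p = 6.90e-05). PGCLC_d3ag3 versus PGCLC_d3 gave -0.18 ± 0.10 and did not pass (adjusted p = 0.138). Relative to the median gene that difference was -0.004, and its sign reversed under both rescalings. The call in PGCLC_d3 versus EpiLC (0.40 ± 0.10, adjusted p = 0.0053) was 0.19 relative to the median gene, did not pass after rescaling by median ratios (0.14, adjusted p = 0.21), and did not pass without EpiLC replicate 1 (0.31, adjusted p = 0.0519).

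Rad51b, Rad51c, Rad51d, Xrcc2 and Xrcc3, whose proteins form small complexes that assist recombination, went separate ways. Rad51c and Xrcc3 encode the 2 partners of one such complex and moved in opposite directions at the first 2 steps. Rad51c was higher in EpiLC than in ESC, at 37.3 ± 0.113 TPM against 22.7 ± 1.23 TPM (difference 0.69 ± 0.11, adjusted p = 2.49e-04), whereas Xrcc3 was lower, at 5.31 ± 0.142 TPM against 8.79 ± 0.963 TPM (-0.63 ± 0.11, adjusted p = 6.75e-04). In PGCLC_d3 versus EpiLC Rad51c fell to 18.2 ± 1.28 TPM (-0.999 ± 0.11, adjusted p = 1.44e-05) and Xrcc3 rose to 11.6 ± 0.517 TPM (0.99 ± 0.11, adjusted p = 2.22e-05). In PGCLC_d3ag3 versus PGCLC_d3 both rose, by 0.59 and 0.48 (adjusted p = 6.81e-04 and 0.00342). Set against the median gene, Rad51c stood at -1.21 and 0.77 and Xrcc3 at 0.78 and 0.66 in these last 2 comparisons. All 6 calls held under both rescalings.

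Xrcc2 fell in PGCLC_d3 versus EpiLC, to 13.4 ± 0.0848 TPM against 21.2 ± 0.98 TPM (-0.62 ± 0.14, -0.84 relative to the median gene, adjusted p = 0.00264). Its further difference of -0.38 in PGCLC_d3ag3 versus PGCLC_d3 (adjusted p = 0.0353) did not pass under either rescaling or without PGCLC_d3ag3 replicate 1, either PGCLC_d3 library or either EpiLC library (adjusted p = 0.0563 to 0.245). Rad51b was near the low limit, at 0.744 to 1.55 TPM over the 8 libraries, and its call in PGCLC_d3 versus EpiLC (0.40, adjusted p = 0.0216) was lost under both rescalings and without EpiLC replicate 1 or either PGCLC_d3 library (adjusted p = 0.054 to 0.112). Rad51d lay between 9.62 and 13.8 TPM and passed at no step on the deposited scale, though it was lower in PGCLC_d3 than in EpiLC after rescaling by median ratios (-0.37, adjusted p = 0.00899) and lower in PGCLC_d3ag3 than in PGCLC_d3 without PGCLC_d3ag3 replicate 1 (-0.31, adjusted p = 0.0467). Rad54l, which encodes a motor protein of recombination, was the steadiest of the 39, at 63.8 to 74.5 TPM in all 8 libraries, with adjusted p from 0.299 to 0.672 on the deposited scale. After rescaling by median ratios, however, Rad54l passed as lower in PGCLC_d3 than in EpiLC (-0.36, adjusted p = 0.00129) and higher in PGCLC_d3ag3 than in PGCLC_d3 (0.28, adjusted p = 0.0062).

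Counted over the 11 recombination genes, 5 rose and 1 fell in EpiLC versus ESC, 6 rose and 3 fell in PGCLC_d3 versus EpiLC, and 2 rose and 4 fell in PGCLC_d3ag3 versus PGCLC_d3. After rescaling by median ratios the last 2 counts were 4 and 5, and 3 and 3. Of all tested genes on the deposited scale, 35.4% rose and 31.8% fell at the first step. The shares were 47.3% and 27.6% at the second and 25.7% and 44.8% at the third. The summed level of the 11 genes was 206 and 232 TPM in ESC, 255 and 277 TPM in EpiLC, 285 and 293 TPM in PGCLC_d3, and 233 and 242 TPM in PGCLC_d3ag3, highest in the PGCLC_d3 libraries on the deposited scale. After rescaling it was 227 and 244 TPM in ESC, 269 and 292 TPM in EpiLC, 249.7 and 254 TPM in PGCLC_d3, and 237 and 241 TPM in PGCLC_d3ag3, highest in EpiLC.

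The DNA glycosylases, which choose the base to be removed, had a summed level in PGCLC_d3 that was far above that in EpiLC. Summed TPM of the 9 genes was 327 and 320.2 TPM in ESC, 364 and 361 TPM in EpiLC, 680.4 and 688 TPM in PGCLC_d3, and 798 and 809.9 TPM in PGCLC_d3ag3. The sums of the 2 PGCLC groups lay far above those of ESC and EpiLC, and Ung made up 46.9% to 57.1% of the sum in each library. After rescaling by median ratios the sum was 360 and 337.8 TPM in ESC and 384.5 and 380.3 TPM in EpiLC. It was then 596.8 and 597.4 TPM in PGCLC_d3, and 812.7 and 808.3 TPM in PGCLC_d3ag3. Of the 9, 7 rose and 1 fell in PGCLC_d3 versus EpiLC, with a median of 0.82 against 0.21 for all genes, and after rescaling by median ratios 5 rose and 1 fell (median 0.55). In EpiLC versus ESC 4 rose and 2 fell, and in PGCLC_d3ag3 versus PGCLC_d3 3 rose and 4 fell, or 4 and 3 after rescaling. Over all tested genes on the deposited scale, 47.3% rose and 27.6% fell in PGCLC_d3 versus EpiLC. The shares were 35.4% and 31.8% in EpiLC versus ESC, and 25.7% and 44.8% in PGCLC_d3ag3 versus PGCLC_d3.

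**Figure D4:**
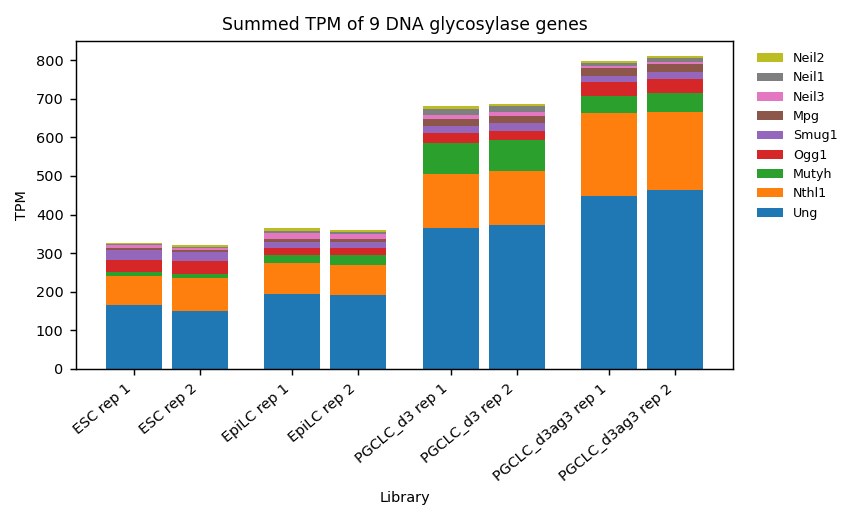
Summed TPM of the 9 DNA glycosylase genes in each library, stacked by gene from Ung at the base. The bars stand between 320.2 and 364.5 TPM in ESC and EpiLC and between 680.4 and 809.9 TPM in the PGCLC libraries, most of the increase being Ung and Nthl1.

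The promoter windows of Ung and Mutyh are shown because these 2 glycosylases led the group, Ung by level and Mutyh by fold. UNG removes uracil from DNA, and MUTYH removes adenine paired with the oxidized base 8-oxoguanine. Each window is the 250 bases before the RefSeq start in GRCr8, written 5′ to 3′ on the strand of the gene (chr12:48154046-48154295, reverse strand for Ung and chr5:135510504-135510753, forward strand for Mutyh). Capitals mark matches on either strand to the E2F motif or the CCAAT box. The Ung window has an E2F match that begins 20 bases before the start and 3 CCAAT boxes, and the Mutyh window has 1 CCAAT box and no E2F match.
Ung: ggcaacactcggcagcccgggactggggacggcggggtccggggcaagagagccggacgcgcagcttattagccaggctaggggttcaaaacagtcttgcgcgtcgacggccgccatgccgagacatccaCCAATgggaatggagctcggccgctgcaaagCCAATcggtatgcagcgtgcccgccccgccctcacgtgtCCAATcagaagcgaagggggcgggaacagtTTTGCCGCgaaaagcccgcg
Mutyh: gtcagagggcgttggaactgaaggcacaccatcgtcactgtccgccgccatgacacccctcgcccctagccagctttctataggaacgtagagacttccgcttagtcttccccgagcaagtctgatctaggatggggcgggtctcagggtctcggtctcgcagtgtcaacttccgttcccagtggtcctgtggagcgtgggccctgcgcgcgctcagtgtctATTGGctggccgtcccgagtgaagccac

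Mutyh was at 8.32 and 9.11 TPM in ESC, 21.4 and 25.5 TPM in EpiLC, 81 and 81.1 TPM in PGCLC_d3, and 44.7 and 50 TPM in PGCLC_d3ag3. Every group was apart from every other, the PGCLC_d3 mean being 9.3 times that of ESC. The differences were 1.33 ± 0.10 in EpiLC versus ESC (adjusted p = 1.57e-06), 1.75 ± 0.10 in PGCLC_d3 versus EpiLC (adjusted p = 1.73e-07) and 3.08 ± 0.10 over both steps in PGCLC_d3 versus ESC (adjusted p = 2.85e-09). Neil3 alone exceeded it in EpiLC versus ESC, Neil1 equalled it to the printed precision in PGCLC_d3 versus EpiLC, and no member exceeded it in PGCLC_d3 versus ESC. The last 2 values were 1.54 and 2.83 relative to the median gene. In PGCLC_d3ag3 versus PGCLC_d3 it fell by 0.77 (adjusted p = 8.42e-05), -0.59 relative to the median gene.

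Ung was at 165 and 150.1 TPM in ESC, 195 and 190.2 TPM in EpiLC, 364 and 372 TPM in PGCLC_d3, and 448 and 463 TPM in PGCLC_d3ag3. Its libraries stood in path order with no overlap. It rose by 0.29 ± 0.06 in EpiLC versus ESC (adjusted p = 0.00118), 0.93 ± 0.06 in PGCLC_d3 versus EpiLC (adjusted p = 2.61e-07) and 0.30 ± 0.06 in PGCLC_d3ag3 versus PGCLC_d3 (adjusted p = 8.54e-04). Relative to the median gene the last 2 were 0.72 and 0.48. Nthl1, which removes oxidized pyrimidines, did not pass in EpiLC versus ESC (-0.05 ± 0.06, adjusted p = 0.52) and rose in PGCLC_d3 to 140.1 ± 0.0692 TPM, against 78.7 ± 0.156 TPM in EpiLC (0.82 ± 0.06, adjusted p = 1.66e-06). In PGCLC_d3ag3 Nthl1 rose again, to 209 ± 8.74 TPM (0.57 ± 0.06, adjusted p = 3.28e-05). The 2 Nthl1 rises, relative to the median gene, were 0.61 and 0.75.

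The 3 Nei-like glycosylases, which act on oxidized bases, differed in course, Neil1 being highest in PGCLC_d3 and Neil3 in EpiLC. Neil2 had its highest mean in EpiLC, but its EpiLC and PGCLC_d3 libraries overlapped. Neil1 was at 3.25 and 3.14 TPM in ESC, 4.77 and 3.7 TPM in EpiLC, 16.9 and 16.1 TPM in PGCLC_d3, and 8.91 and 9.33 TPM in PGCLC_d3ag3. Both PGCLC groups lay above ESC and EpiLC, PGCLC_d3 highest. Neil1 rose by 1.75 ± 0.13 in PGCLC_d3 versus EpiLC (adjusted p = 1.09e-06), 1.54 relative to the median gene, and fell by 0.79 in PGCLC_d3ag3 versus PGCLC_d3 (adjusted p = 3.71e-04), -0.61 relative to it. In EpiLC versus ESC the value of 0.31 had an adjusted p of 0.0549, and without EpiLC replicate 2 it was 0.46 and passed (adjusted p = 0.0217).

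Neil3 was at 5.65 and 4.65 TPM in ESC, 16.1 and 15.2 TPM in EpiLC, 10.6 and 10 TPM in PGCLC_d3, and 4.21 and 6.74 TPM in PGCLC_d3ag3. EpiLC was highest, PGCLC_d3 next, and the ESC and PGCLC_d3ag3 libraries overlapped at the bottom, with the 2 PGCLC_d3ag3 libraries well apart. Neil3 rose by 1.44 ± 0.18 in EpiLC versus ESC (adjusted p = 5.47e-05) and fell by 0.83 in PGCLC_d3ag3 versus PGCLC_d3 (adjusted p = 0.0021). The fall of 0.56 in PGCLC_d3 versus EpiLC (adjusted p = 0.0162) did not pass without either EpiLC library or PGCLC_d3 replicate 2 (-0.52 to -0.60, adjusted p = 0.0533 to 0.0866). Against the median gene Neil3 was at -0.77 in PGCLC_d3 versus EpiLC and -0.65 in PGCLC_d3ag3 versus PGCLC_d3. Neil2 was higher in EpiLC than in ESC, at 6.65 ± 0.7 TPM against 3.42 ± 0.4 TPM (0.79 ± 0.13, adjusted p = 3.69e-04). In PGCLC_d3 versus EpiLC Neil2 gave -0.08 ± 0.13 and did not pass (adjusted p = 0.583). Its fall of 0.42 in PGCLC_d3ag3 versus PGCLC_d3 (adjusted p = 0.0139) did not pass under either rescaling, nor without PGCLC_d3 replicate 1 or 2 (adjusted p = 0.0635 and 0.073).

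Mpg, which removes alkylated bases, was at 6.4 and 6.76 TPM in ESC, 8.6 and 6.88 TPM in EpiLC, 16.8 and 19 TPM in PGCLC_d3, and 20.2 and 20.9 TPM in PGCLC_d3ag3. Both ESC libraries lay just below the lower EpiLC library, and all PGCLC libraries lay far above. The rise in PGCLC_d3 versus EpiLC was 1.12 ± 0.12 (adjusted p = 1.85e-05), 0.91 relative to the median gene. In PGCLC_d3ag3 versus PGCLC_d3 the value of 0.19 ± 0.12 did not pass (adjusted p = 0.193), though after rescaling by median ratios it was 0.39 and did (adjusted p = 0.0146).

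Ogg1 and Smug1 were the glycosylases lower in EpiLC than in ESC. OGG1 removes 8-oxoguanine itself, whereas MUTYH removes an adenine paired with it, and SMUG1 removes uracil as UNG does. Ogg1 was at 18.4 ± 0.883 TPM in EpiLC against 33.2 ± 0.0839 TPM in ESC (-0.82 ± 0.08, adjusted p = 8.38e-06) and Smug1 at 15.2 ± 0.0636 TPM against 24.3 ± 0.347 TPM (-0.64 ± 0.08, adjusted p = 7.11e-05). In PGCLC_d3ag3 versus PGCLC_d3 Ogg1 rose to 35.4 ± 0.196 TPM, against 24 ± 1.11 TPM (0.54 ± 0.08, 0.72 relative to the median gene, adjusted p = 1.65e-04), while Smug1 gave -0.14 ± 0.08 (adjusted p = 0.167). In PGCLC_d3 versus EpiLC both were called higher on the deposited scale (0.37 and 0.34), but neither passed after rescaling by median ratios (0.11 and 0.08), and Smug1 was at -0.02 under quantile normalization. Both were lower in PGCLC_d3 than in ESC, Ogg1 by 0.45 and Smug1 by 0.30 (adjusted p = 4.08e-04 and 0.00665), the Smug1 call being lost without PGCLC_d3 replicate 2 (-0.29, adjusted p = 0.0549).

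Downstream of the glycosylases, the single-strand break factors Xrcc1 and Lig3 peaked in PGCLC_d3. XRCC1 is a scaffold that holds the ligase LIG3 and the polymerase POLB at a nick. Xrcc1 was at 38.3 and 43.5 TPM in ESC, 32.5 and 30.5 TPM in EpiLC, 84.7 and 87.5 TPM in PGCLC_d3, and 63.1 and 52.3 TPM in PGCLC_d3ag3. PGCLC_d3 was highest and PGCLC_d3ag3 next, with EpiLC below ESC. Xrcc1 rose by 1.42 ± 0.10 in PGCLC_d3 versus EpiLC (adjusted p = 6.43e-07), 1.21 relative to the median gene, and fell by 0.57 in PGCLC_d3ag3 versus PGCLC_d3 (adjusted p = 4.85e-04), -0.40 relative to it. The difference of -0.36 in EpiLC versus ESC (adjusted p = 0.0078) did not pass without ESC replicate 2 or EpiLC replicate 2 (-0.28 and -0.32, adjusted p = 0.0694 and 0.0589).

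Lig3 was at 42.6 and 47.4 TPM in ESC, 43.9 and 50 TPM in EpiLC, 76 and 78.6 TPM in PGCLC_d3, and 35.7 and 35.7 TPM in PGCLC_d3ag3. ESC and EpiLC overlapped, PGCLC_d3 lay above both, and the PGCLC_d3ag3 libraries were equal to each other at the printed precision and below all others. It rose by 0.71 ± 0.08 in PGCLC_d3 versus EpiLC (adjusted p = 2.68e-05) and fell by 1.09 in PGCLC_d3ag3 versus PGCLC_d3 (adjusted p = 2.28e-06), the second-largest fall of the 39 genes there after Brca2. Relative to the median gene these were 0.50 and -0.92. Lig1, the ligase of replication and of long-patch repair, was higher in EpiLC than in ESC (0.40 ± 0.07, adjusted p = 7.25e-04) and, like Lig3, lower in PGCLC_d3ag3 than in PGCLC_d3, at 70.1 ± 5.22 TPM against 100.1 ± 5 TPM (-0.51 ± 0.07, -0.33 relative to the median gene, adjusted p = 1.52e-04).

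Polb, the main gap-filling polymerase, fell in PGCLC_d3ag3 to 46.8 ± 3.65 TPM, against 66.9 ± 0.466 TPM in PGCLC_d3 (-0.51 ± 0.07, -0.33 relative to the median gene, adjusted p = 1.23e-04), and passed at neither earlier step on the deposited scale (EpiLC versus ESC -0.08, PGCLC_d3 versus EpiLC -0.09). After rescaling by median ratios the second was -0.36 and passed (adjusted p = 9.23e-04). The abasic-site nuclease Apex1 was the most abundant member per length in ESC, EpiLC and PGCLC_d3, at 551 ± 0.812 TPM in PGCLC_d3 against 467 ± 14 TPM in EpiLC, and it rose by 0.39 ± 0.05 in EpiLC versus ESC (adjusted p = 8.66e-05). Its calls of 0.24 in PGCLC_d3 versus EpiLC and -0.25 in PGCLC_d3ag3 versus PGCLC_d3 (adjusted p = 0.00178 and 0.00151) were -0.03 and -0.04 after rescaling by median ratios, where neither passed and the first changed sign.

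The poly(ADP-ribose) polymerases Parp1 and Parp2, which sense strand breaks and recruit XRCC1, were both lowest in EpiLC. Parp1 fell there to 231 ± 14.2 TPM, against 315 ± 6.96 TPM in ESC (-0.45 ± 0.06, adjusted p = 1.33e-04), and Parp2 to 66.8 ± 2.82 TPM, against 79 ± 3.96 TPM (-0.24 ± 0.06, adjusted p = 0.00561). Parp1 rose in PGCLC_d3 versus EpiLC by 0.58 ± 0.06 and Parp2 by 0.75 ± 0.06 (adjusted p = 1.57e-05 and 1.91e-06), which was 0.37 and 0.54 relative to the median gene. Parp1 rose again in PGCLC_d3ag3, to 511 ± 29.6 TPM against 346 ± 12.4 TPM in PGCLC_d3 (0.56 ± 0.06, 0.74 relative to the median gene, adjusted p = 2.87e-05), and Parp2 was at 0.06 ± 0.06 (adjusted p = 0.419), which passed after rescaling by median ratios at 0.26 (adjusted p = 0.00573). Of the 7 downstream genes, 2 rose and 3 fell in EpiLC versus ESC, 5 rose and 0 fell in PGCLC_d3 versus EpiLC, and 1 rose and 5 fell in PGCLC_d3ag3 versus PGCLC_d3. Rescaled by median ratios, the PGCLC_d3 versus EpiLC count was 4 and 2. Among all tested genes on the deposited scale, 35.4% rose and 31.8% fell in EpiLC versus ESC. The shares were 47.3% and 27.6% in PGCLC_d3 versus EpiLC, and 25.7% and 44.8% in PGCLC_d3ag3 versus PGCLC_d3.

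Of the 4 checkpoint kinases, Chek1 was highest in ESC, where the other 3 were lowest. ATR and its target CHK1 answer stalled replication, and ATM and its target CHK2 answer double-strand breaks. The Chek1 window is shown because Chek1, alone of the 4, was highest in ESC. Like the Ung window it has an E2F match close to the start. It covers the 250 bases before the RefSeq start in GRCr8 (chr8:44629844-44630093, reverse strand), with the E2F match, which begins 28 bases before the start, in capitals.
Chek1: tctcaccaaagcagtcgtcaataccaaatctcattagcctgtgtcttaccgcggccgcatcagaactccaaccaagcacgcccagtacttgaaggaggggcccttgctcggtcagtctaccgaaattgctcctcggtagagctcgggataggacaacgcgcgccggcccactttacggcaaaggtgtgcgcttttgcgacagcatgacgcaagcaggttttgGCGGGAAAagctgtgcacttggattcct

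Chek1 was at 96.9 and 98.5 TPM in ESC, 75.2 and 71.5 TPM in EpiLC, 34.1 and 36.4 TPM in PGCLC_d3, and 31.6 and 32.7 TPM in PGCLC_d3ag3. The groups descended in path order without overlap, with most of the drop between EpiLC and PGCLC_d3. Chek1 fell by 0.41 in EpiLC versus ESC (SE 0.07, adjusted p = 3.40e-04) and by 1.04 in PGCLC_d3 versus EpiLC (SE 0.07, adjusted p = 3.47e-07), where it stood at -1.25 relative to the median gene. PGCLC_d3ag3 versus PGCLC_d3 gave -0.13 ± 0.07 (adjusted p = 0.107), with the sign reversed under both rescalings. In PGCLC_d3 versus ESC, Chek1 was the 1 member of the 39 lower by at least 1 on the log2 scale (-1.45 ± 0.07, adjusted p = 2.57e-08).

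Atr was at 9.08 and 14.2 TPM in ESC, 16.7 and 17 TPM in EpiLC, 40.9 and 42.9 TPM in PGCLC_d3, and 26.8 and 27.2 TPM in PGCLC_d3ag3. ESC was lowest with its 2 libraries far apart, and PGCLC_d3 was highest. Atr rose by 1.26 ± 0.16 in PGCLC_d3 versus EpiLC (adjusted p = 4.83e-05), 1.05 relative to the median gene, and fell by 0.61 in PGCLC_d3ag3 versus PGCLC_d3 (adjusted p = 0.00612), -0.44 relative to it. Its call of 0.53 in EpiLC versus ESC (adjusted p = 0.0144) fell to 0.23 without ESC replicate 1 (adjusted p = 0.0591) and was also lost without either EpiLC library (0.51 and 0.54, adjusted p = 0.0712 and 0.0591).

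Atm was at 8.32 and 11.9 TPM in ESC, 19.9 and 22.1 TPM in EpiLC, 24.9 and 25.1 TPM in PGCLC_d3, and 12.8 and 13.2 TPM in PGCLC_d3ag3. ESC libraries were the lowest, though ESC replicate 2 came within 1 TPM of PGCLC_d3ag3 replicate 1, and PGCLC_d3 was highest. It rose by 1.00 ± 0.14 in EpiLC versus ESC (adjusted p = 1.46e-04) and fell by 0.89 in PGCLC_d3ag3 versus PGCLC_d3 (adjusted p = 3.20e-04), -0.71 relative to the median gene. The Atm value of 0.24 in PGCLC_d3 versus EpiLC had an adjusted p of 0.15. It passed without ESC replicate 1 or 2 (adjusted p = 0.0371 and 0.0386) and was -0.02 after rescaling by median ratios.

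Chek2 was at 38.6 and 39 TPM in ESC, 44.1 and 48.7 TPM in EpiLC, 86.7 and 83.2 TPM in PGCLC_d3, and 86.7 and 87.8 TPM in PGCLC_d3ag3. The PGCLC groups overlapped with each other and lay above EpiLC, which lay above ESC. Chek2 rose by 0.86 ± 0.07 in PGCLC_d3 versus EpiLC (adjusted p = 1.59e-06), 0.65 relative to the median gene, and did not pass in PGCLC_d3ag3 versus PGCLC_d3 (0.04 ± 0.07, adjusted p = 0.631), where rescaling by median ratios gave 0.24 (adjusted p = 0.00871). Its rise of 0.25 in EpiLC versus ESC (adjusted p = 0.00792) was 0.18 without EpiLC replicate 2 (adjusted p = 0.0668). Summed over the 4 kinases the level was 153 and 164 TPM in ESC, 156 and 159 TPM in EpiLC, 187 and 188 TPM in PGCLC_d3, and 158 and 161 TPM in PGCLC_d3ag3, highest in PGCLC_d3 on that scale. Rescaled by median ratios it was 168 and 173 TPM in ESC, 164 and 168 TPM in EpiLC, 164 and 163 TPM in PGCLC_d3, and 161 and 160.5 TPM in PGCLC_d3ag3, a narrow range with ESC replicate 2 at the top. The share of Chek2 in the sum was 25.2 and 23.8 % in ESC, 28.3 and 30.6 % in EpiLC, 46.5 and 44.4 % in PGCLC_d3, and 54.9 and 54.6 % in PGCLC_d3ag3.

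Ratios of TPM between genes whose proteins work together show these shifts within each library, where scaling cancels. The pairs were chosen after their values had been seen, and no test was made. Chek1 over Atr was 10.7 and 6.91 in ESC, 4.51 and 4.2 in EpiLC, 0.834 and 0.848 in PGCLC_d3, and 1.18 and 1.2 in PGCLC_d3ag3, so the kinase outnumbered its activator in transcripts in ESC and EpiLC and was close to parity in the PGCLC groups. Ogg1 over Mutyh was 4 and 3.64 in ESC, 0.83 and 0.745 in EpiLC, 0.306 and 0.286 in PGCLC_d3, and 0.788 and 0.711 in PGCLC_d3ag3, lowest in PGCLC_d3. Rad51c over Xrcc3 was 2.69 and 2.49 in ESC, 7.17 and 6.87 in EpiLC, 1.45 and 1.7 in PGCLC_d3, and 1.53 and 1.86 in PGCLC_d3ag3, with EpiLC apart from the other groups. Brca1 over Bard1 was 1.01 and 1.16 in ESC, 1.03 and 1.1 in EpiLC, 2.84 and 2.56 in PGCLC_d3, and 1.56 and 1.49 in PGCLC_d3ag3, and Palb2 over Brca2 was 0.47 and 0.402 in ESC, 0.582 and 0.576 in EpiLC, 0.819 and 0.798 in PGCLC_d3, and 1.4 and 2.07 in PGCLC_d3ag3. For Brca1 over Bard1 only the PGCLC_d3 ratios exceeded 2, and for the Palb2 pair the ratio passed 1 only in PGCLC_d3ag3. Parp1 over Parp2 ranged from 2.97 to 4.49 and changed least after Fancd2 over Fanci among the 10 pairs.

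**Figure D5:**
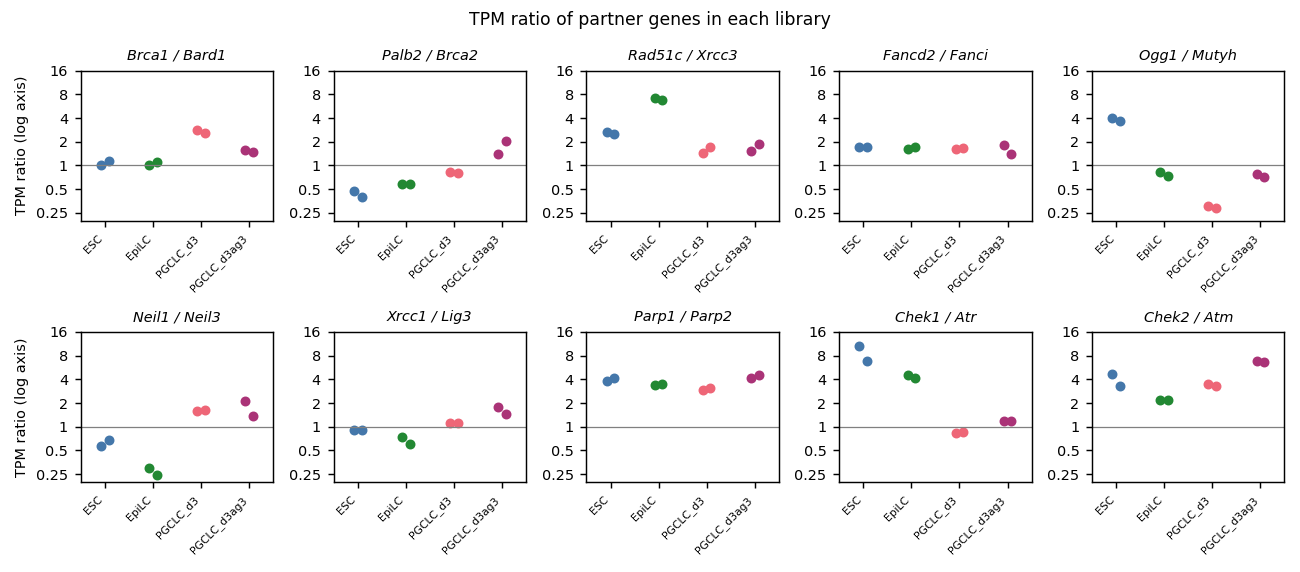
TPM ratio of 10 pairs of partner genes in each library, on a log axis shared by all panels, with a line at a ratio of 1. Fancd2 over Fanci stays between 1.38 and 1.81 in all 8 libraries, whereas Chek1 over Atr runs from 10.7 in ESC to 0.834 in PGCLC_d3.

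Promoter windows were found for 33 of the 39 genes in the RefSeq table of GRCr8. The E2F motif, searched as TTTGGCGC, TTTCCCGC, TTTCGCGC or TTTGCCGC on both strands, was in 7 of the 33 windows (21.2%), against 3.3% of 11459 tested genes with a window and 1.7% of all 33469 windows. The 7 genes were Atm, Bard1, Chek1, Fancc, Nthl1, Rad51d and Ung, whose levels peak in different groups. The CCAAT box was in 36.4% of the 33 windows against 35.6% of tested genes' windows, the GC box GGGCGG in 57.6% against 57.4%, and the NRF1 motif in none against 1.7%. These are counts of letters in a fixed window, without a test, and not binding sites.

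Other genes of the same pathways were counted from lists chosen with earlier results of these data known. Beside these lists, 35.4% of all tested genes rose and 31.8% fell in EpiLC versus ESC on the deposited scale. The shares were 47.3% and 27.6% in PGCLC_d3 versus EpiLC, and 25.7% and 44.8% in PGCLC_d3ag3 versus PGCLC_d3. Of 19 other Fanconi genes, 4 rose and 10 fell in EpiLC versus ESC. Ercc4, a nuclease subunit that cuts beside crosslinks, fell there by 1.51 (adjusted p = 5.19e-06) and Rev3l, a translesion polymerase, by 1.45 (adjusted p = 2.13e-05). In PGCLC_d3 versus EpiLC 9 rose and 1 fell, or 9 and 6 after rescaling by median ratios, and in PGCLC_d3ag3 versus PGCLC_d3 5 rose and 9 fell, or 7 and 7. Faap20, a core complex partner, fell by 1.39 in PGCLC_d3ag3 versus PGCLC_d3 (adjusted p = 1.59e-06).

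Of 27 other recombination genes tested, 15 rose and 6 fell in EpiLC versus ESC, 14 rose and 5 fell in PGCLC_d3 versus EpiLC, and 6 rose and 9 fell in PGCLC_d3ag3 versus PGCLC_d3. Rescaled by median ratios, the last 2 counts were 12 and 9, and 13 and 7. The helicase gene Wrn was at 3.39 and 4.37 TPM in ESC, 6.13 and 6.25 TPM in EpiLC, 20.2 and 19 TPM in PGCLC_d3, and 12 and 11.1 TPM in PGCLC_d3ag3, PGCLC_d3 being highest, and rose by 1.52 ± 0.13 in PGCLC_d3 versus EpiLC (adjusted p = 2.49e-06). Of 16 other base excision genes, 7 rose and 3 fell, then 9 rose and 4 fell, then 3 rose and 10 fell at the 3 steps, and rescaled counts for the last 2 were 7 and 6, and 4 and 5. All tested genes on the deposited scale had shares of 35.4% rising and 31.8% falling at the first step. The shares were 47.3% and 27.6% at the second and 25.7% and 44.8% at the third. Tdg, the glycosylase that removes thymine from mismatches and oxidized forms of methylcytosine, was at 46.4 and 50.7 TPM in ESC, 189.7 and 194 TPM in EpiLC, 134 and 136 TPM in PGCLC_d3, and 74.4 and 82.8 TPM in PGCLC_d3ag3. It was highest in EpiLC, where it exceeded ESC by 1.96 ± 0.07 (adjusted p = 7.50e-09), and was lower in PGCLC_d3 than in EpiLC (-0.50 ± 0.07, adjusted p = 9.20e-05).

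Among 18 other checkpoint genes, 6 rose and 4 fell in EpiLC versus ESC, 9 rose and 6 fell in PGCLC_d3 versus EpiLC, and 6 rose and 8 fell in PGCLC_d3ag3 versus PGCLC_d3 (10 and 6 when rescaled by median ratios). Of all tested genes on the deposited scale, 35.4% rose and 31.8% fell at the first step. The shares were 47.3% and 27.6% at the second and 25.7% and 44.8% at the third. Tp53bp1, which shields broken ends from resection, was at 6.03 and 6.29 TPM in ESC, 23.7 and 25.7 TPM in EpiLC, 38.7 and 41.4 TPM in PGCLC_d3, and 15.4 and 15.2 TPM in PGCLC_d3ag3, highest in PGCLC_d3. H2ax, the histone that marks breaks when phosphorylated, fell in PGCLC_d3 versus EpiLC (-1.19 ± 0.05, adjusted p = 1.28e-08) and rose in PGCLC_d3ag3 versus PGCLC_d3 (1.36 ± 0.05, adjusted p = 2.07e-08).

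Many repair transcripts vary with the cell cycle, so genes of S phase and of G2 and M were counted beside them. Of 22 S phase genes, 12 rose and 4 fell in EpiLC versus ESC (median 0.32), 5 rose and 13 fell in PGCLC_d3 versus EpiLC (median -0.34), and 10 rose and 9 fell in PGCLC_d3ag3 versus PGCLC_d3 (median 0.03). Of 15 genes of G2 and M, 5 rose and 5 fell, then 8 rose and 4 fell, then 3 rose and 6 fell at the same steps. Over all tested genes on the deposited scale, 35.4% rose and 31.8% fell at the first step. The shares were 47.3% and 27.6% at the second and 25.7% and 44.8% at the third. With median-ratio rescaling the S phase counts were 11 and 4, 2 and 16, and 11 and 7, and those of G2 and M were 3 and 7, 7 and 7, and 8 and 3, so the last comparison held more rises than falls of G2 and M genes where the deposited scale held fewer. In PGCLC_d3 versus EpiLC the S phase median lay below that of all genes (0.21) and the repair members' median (0.37) above it. The part of the cell cycle in the members' differences was not tested.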

How the data were processed

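Total RNA of 8 libraries was extracted with PicoPure kits, amplified with SMART-Seq v4 and made into libraries with KAPA Hyper Prep, per the labels' protocols. The authors deposited a table of log2(TPM+1) per gene. Tools named in the submitters' processing notes, without roles, are bcl2fastq 2.20, cutadapt 1.1.6, HISAT2 2.1.0 and Subread 1.6.5 with featureCounts, beside the build rn7. Read totals are not in the table, so absolute depth is unknown.

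Rows without a name (11066) were left out, and 13571 of 22228 named genes had at least 1 TPM in at least 2 libraries. Differences of log2(TPM+1), pseudocount 1, entered 1 fit of all 8 libraries by limma 3.58.1, run in R 4.3.3 with a mean trend in eBayes (4 residual degrees of freedom) and Benjamini-Hochberg adjustment over the 13571 genes. Fold changes on this scale understate the change of low genes. On simulated data, 55.2% to 59.7% of planted differences of 0.5 were found in the 4 comparisons, and 98.5% or more of those of 1. At each size at most 67 of the 13571 genes were changed there, whereas 67.3% to 77.0% of genes were called in the data. The shares found need not hold for the data, since the adjustment depends on how many genes change. Alternatives were 2 rescalings, a pseudocount of 0.1, other filters, other fits and leaving out each library. The members and lists were chosen with earlier results of these data known. Values of each library are given for the 17 members called in some comparison with a difference of at least 1, and other pathway genes were named from the largest called differences of each list. A gene of the recombination list is not reported here.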

Additional observations from a re-analysis of the deposited data

How the results depend on the processing

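Members lower in PGCLC_d3 than in EpiLC numbered 6 on the deposited scale, 11 after rescaling by median ratios and 12 under quantile normalization. Of all 13571 tested genes, 3747, 5107 and 4959 were lower, in that order. Members higher in PGCLC_d3ag3 than in PGCLC_d3 numbered 7, against 12 under either rescaling, and those lower in PGCLC_d3 than in ESC 6, against 10 under either. Over all tested genes the former numbered 3483, against 4751 by median ratios and 4700 by quantile normalization. The latter numbered 3715, against 5108 and 4920. The cause of these shifts, seen over all genes too, was not tested. Without 1 library at a time, the counts higher and lower were 15 to 19 and 6 to 7 in EpiLC versus ESC, 21 to 25 and 4 to 6 in PGCLC_d3 versus EpiLC, 7 and 16 to 20 in PGCLC_d3ag3 versus PGCLC_d3, and 24 to 26 and 3 to 6 in PGCLC_d3 versus ESC, the 3 arising without ESC replicate 2, PGCLC_d3 replicate 1 or PGCLC_d3 replicate 2. Of 115 calls, 90 held without any 1 library and 25, of 20 members, did not. With 1 library left in a group, the spread comes from the other groups, and the lone library is assumed to vary like theirs.

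Directions reversed under rescaling as follows. By median ratios, PGCLC_d3 versus ESC gave -0.28 for Fanca, -0.0225 for Lig1 and -0.17 for Parp1, and PGCLC_d3 versus EpiLC gave -0.034 for Apex1. By quantile normalization, PGCLC_d3ag3 versus PGCLC_d3 gave 0.29 for Fanca and 0.26 for Bard1, PGCLC_d3 versus ESC gave -0.31 for Fanca, -0.0303 for Rad51b and -0.27 for Rad51d, and PGCLC_d3 versus EpiLC gave -0.0209 for Smug1. A further 41 sign changes were of values past the threshold in neither setting. A pseudocount of 0.1 changed no call of the 156 values. A filter at 5 TPM left no value for Fancg and Rad51b, so 148 values remained.

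With the replicate number as a block, the counts were the same except in PGCLC_d3 versus ESC, with 27 higher and 5 lower. The block is no check of pairing here, since replicates with the same number did not deviate together (r of -0.037 to 0.066 over 13571 genes).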
